A study of Rattus norvegicus with 10 samples.

Results

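The 10 genes described here serve the release, sensing and breakdown of extracellular nucleotides, or are close relatives of such genes, and were measured in renal cortex of PCK rats. They were taken as the rows of the expression table whose symbol is *Slc17a9*, *Panx1*, *P2rx4*, *P2rx7*, *P2ry1*, *P2ry2*, *Entpd1*, *Entpd2*, *Entpd5* or *Nt5e*. Each symbol was listed once, so 10 of the 32545 genes of the table were used. The symbols were written down when the female to male differences of these same rats were already known. Their sex differences are therefore given as a description, and their p-values, from a fit to all genes of the table and from exact permutation tests of single genes, are no independent evidence.

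Males (5 rats) were compared with females (5 rats) of the PCK strain, with 1 RNA library of renal cortex per rat. The PCK rat (PCK/CrljCrl-Pkhd1pck/Crl) carries a mutation of *Pkhd1* and is a model of autosomal recessive polycystic kidney disease, and rats of both sexes carried it. No rat had been treated, and no rats without cysts were sequenced, so every comparison is between the sexes of a cystic strain. The study's methods give an age of 10 to 12 weeks, renal cortex and littermates of 2 litters, while the labels give 12 to 14 weeks and kidney.

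Cells release ATP through vesicles or through membrane channels, and ATP outside the cell acts on P2X receptors, which are cation channels, and on P2Y receptors, which couple to G proteins. Ectonucleotidases at the cell surface then strip the phosphates one after another, ending in adenosine, which has receptors of its own. In the kidney this signalling inhibits salt and water reabsorption along the nephron, and in polycystic kidney disease ATP that is trapped in cyst fluid has been linked to cyst growth.

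Values are FPKM, fragments per kilobase of gene, scaled by a size of the library that was inferred from the values. This size was 0.905 (female 4) to 1.07 (male 1) times the library's reads on genes. The scaling was therefore not to the reads on genes alone. The libraries held 13912569 to 20285911 reads on genes, recovered from the FPKM as whole reads. Mitochondrial genes took 14.3% to 26.8% of these reads, with the highest share in female 2 and the next at 19.1%. Differences between the sexes are log2 fold changes of females over males on log2(FPKM + 0.1), with the standard error (SE) and the Benjamini-Hochberg adjusted p of limma over 17631 genes. A gene was called at an adjusted p of at most 0.05 and a change of at least 2-fold. Markers of proximal tubule, thick ascending limb, distal convoluted tubule and collecting duct had summed levels of 83.3 FPKM or more in each library. At an adjusted p of at most 0.05, *Cubn* was the single one of 6 proximal tubule markers to rise and 0 fell, while *Aqp1* stood at −0.56 on the log2 scale (limma adjusted p = 0.233) and was the other of the 2 at an unadjusted p under 0.05. Of the further lists, 0 of 4 thick ascending limb, 2 distal convoluted tubule, 5 podocyte, 6 smooth muscle and pericyte, 6 lymphocyte and 3 urothelium markers passed (1, 2, 1, 1, 1 and 0 of them at an unadjusted p under 0.05). Female 2 stood apart from the other rats. Its 4 urothelium markers summed to 9.83 FPKM, against 0.144 to 0.320 FPKM in the other 9, with *Upk3a* at 4.64 FPKM and listed at 0 in the others. It also had the highest summed endothelial (208 FPKM) and smooth muscle and pericyte (266 FPKM) markers. Without female 2 the log2 fold changes of the 10 genes were 1.44 for *Slc17a9*, −0.23 for *Panx1*, −0.08 for *P2rx4*, −0.56 for *P2rx7*, 0.63 for *P2ry1*, −0.85 for *P2ry2*, 0.87 for *Entpd1*, 0.04 for *Entpd2*, 0.27 for *Entpd5* and −0.09 for *Nt5e*. Nothing in the labels ties the rats to litters, so differences between litters could not be told apart from those between rats of a sex. In whole tissue, fewer cells of a type and less RNA per cell cannot be told apart either.

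Of the 10 genes, 1 was called, *Slc17a9*, which was higher in females, where 1.32% of all genes tested were called, 0.618% as higher and 0.698% as lower in females. The same gene was the single one of the 10 at an adjusted p of at most 0.05 whatever its fold change, against 2.40% of all genes (1.26% higher and 1.14% lower in females). It was also the only one of the 10 whose FPKM ranges did not overlap between the sexes, against 5.10% of all genes, of which 2.50% had all females above all males. At an unadjusted p under 0.05 there were 5 of the 10, *Slc17a9*, *P2ry1*, *P2ry2*, *P2rx7* and *Entpd1*, against 15.7% of all genes. Nothing is read from these shares, because the genes were chosen with this contrast in view. Of the 10 log2 fold changes, 5 were above 0 and 5 below, though *Entpd2* turned below 0 with quantile normalization and with scaling to total reads, with a median of −0.03 and a median size of 0.39, beside −0.01 and 0.17 over all genes.

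**Figure D1:**
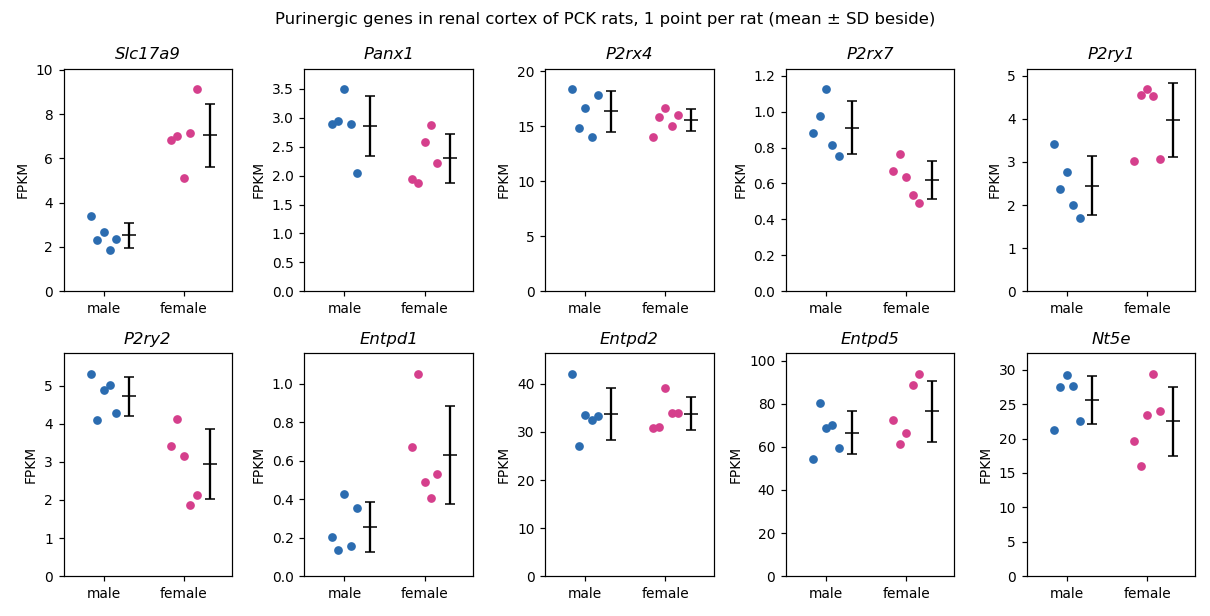
FPKM of the 10 genes in each rat (y axis, from 0), with 5 males in blue and 5 females in pink, and the mean ± SD (n = 5) of each sex beside the points. The female points of *Slc17a9* (5.10 to 9.14 FPKM) lie above all male points (1.86 to 3.42 FPKM), and the other 9 genes overlap between the sexes.

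The release side was represented by a vesicular transporter and a channel. *Slc17a9* (ENSRNOG00000010275, chromosome 3, 176230378 to 176246953 on Rnor_6.0) encodes the vesicular nucleotide transporter VNUT, which loads ATP into secretory vesicles. It was at 3.42, 2.32, 2.68, 1.86 and 2.35 FPKM in males 1 to 5 and at 6.81, 6.99, 5.10, 7.13 and 9.14 FPKM in females 1 to 5. The lowest female was above the highest male, and female 5 was the highest of the 10 rats. The mean rose from 2.52 ± 0.579 FPKM (SD, n = 5) in males to 7.03 ± 1.43 FPKM (SD, n = 5) in females, a ratio of 2.79. Its log2 fold change was 1.45 (SE 0.18, limma adjusted p = 0.00158). The exact permutation test of the mean FPKM, two-sided, gave p = 0.00794, the smallest value that 5 rats against 5 allow. Each male had 80 to 120 reads of this gene, and each female 196 to 331. Leaving out each rat in turn kept the log2 fold change between 1.35 and 1.56, and it was 1.48 with the mitochondrial share of the reads as a covariate. Markers of collecting duct cells were set beside these values. The 5 intercalated cell markers, *Atp6v1g3*, *Atp6v0d2*, *Slc4a1*, *Slc26a4* and *Foxi1*, all had log2 fold changes above 0 (median 0.58), with 5 of 5 at an unadjusted p under 0.05 and *Atp6v0d2* at a limma adjusted p of 0.0351, and their summed level was 134 to 205 FPKM in males against 215 to 337 in females. The 6 principal cell markers had a median of 0.40, with 2 of 6 at an unadjusted p under 0.05 and *Avpr2* at a limma adjusted p of 0.0469, at a summed level of 295 to 476 FPKM in males against 341 to 537 in females. The distal convoluted tubule list lay above 0 too (median 0.42, 2 of 2). So did thick ascending limb (0.25, 4 of 4) and podocyte (0.27, 5 of 5). Proximal tubule was split, 4 above and 2 below. Medians of injured tubule, fibroblast, smooth muscle and pericyte, macrophage and lymphocyte lists lay below 0. The top intercalated sum was that of female 2, with *Foxi1* at 42.0 FPKM against 17.4 to 22.5 in the other females. The part of all these markers in the result for *Slc17a9* was not tested.

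*Panx1* (ENSRNOG00000010060, chromosome 8, 13566739 to 13606040), which encodes the ATP-permeable channel pannexin 1, did not follow *Slc17a9*. Its levels were 2.89, 2.94, 3.50, 2.90 and 2.04 FPKM in males 1 to 5 and 1.94, 1.88, 2.58, 2.87 and 2.22 FPKM in females 1 to 5. The sexes overlapped, with male 5 below 3 of the 5 females. The log2 fold change was −0.30 (SE 0.17, limma adjusted p = 0.437). The exact permutation p, two-sided, was 0.0794, and it was 0.0159 without male 5 and 0.0556 to 0.190 with any other rat left out. Within a library, *Slc17a9* stood at 0.640 to 1.18 times the FPKM of *Panx1* in males and at 1.98 to 4.11 times in females. This ratio does not depend on how the libraries were scaled, and it was picked after the values were seen.

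Both P2X genes lie on the minus strand of chromosome 12, separated by 27939 bases. *P2rx4* (ENSRNOG00000001300, 39308025 to 39325673) encodes P2X4, a calcium-permeable channel gated by ATP and found in many epithelia. It was the most abundant of the 4 receptor genes, at 18.4, 14.9, 16.7, 14.0 and 17.8 FPKM in males 1 to 5 and at 14.0, 15.9, 16.7, 15.0 and 15.98 FPKM in females 1 to 5. The sexes overlapped, with males 1 and 5 above all females and the females closer together. The log2 fold change was −0.07 (SE 0.09, limma adjusted p = 0.783), and the exact permutation p, two-sided, was 0.437. With each rat left out the log2 fold change ran from −0.12 (without male 4) to −0.025 (without male 1), and it was −0.036 without male 5 and −0.034 without female 1. Scaling to total reads gave −0.14. The SD was 11.5% of the mean in males and 6.50% in females.
*P2rx7* (ENSRNOG00000001296, 39353613 to 39396042) encodes P2X7, which needs more ATP to open and is known for its role in macrophages. It was at 0.883, 0.973, 1.13, 0.814 and 0.752 FPKM in males 1 to 5 and at 0.671, 0.763, 0.637, 0.533 and 0.494 FPKM in females 1 to 5. The only overlap was between female 2 and male 5. The log2 fold change was −0.49 (SE 0.18, limma adjusted p = 0.215) and ran from −0.57 to −0.24 over all alternatives, the last with a pseudocount of 1. The exact permutation p, two-sided, was 0.0159, and it was 0.0238 or less with each rat left out. With 30 to 69 reads per rat, counting alone gives an SD of 13.1% of the mean in males and 16.2% in females, and the SD seen was 16.1% and 17.5%. The spread of *P2rx7* between rats of a sex was thus little above its counting error. *P2rx4* exceeded *P2rx7* by 14.8 to 23.7 times in males and by 20.8 to 32.4 times in females, with overlap between the sexes. Of the 8 macrophage markers, 7 had log2 fold changes below 0 (median −0.48 over the 8), and 0 passed the adjusted p, with 2 at an unadjusted p under 0.05. Their summed level was 166 to 327 FPKM in males against 81.2 to 215 in females, and their part in the values of *P2rx7* was not tested.

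The log2 fold changes of the P2Y genes had opposite signs, and neither passed the adjusted p. *P2ry1* encodes P2Y1, a receptor for ADP, and *P2ry2* encodes P2Y2, a receptor for ATP and UTP that lowers sodium and water reabsorption in the collecting duct. The 300 bases around the start of each gene (250 before, 50 from the start on) are shown because these genes changed places in the order of levels between the sexes. The sequences are RefSeq reference sequence of build GRCr8, 5′ to 3′ on the gene's strand, for *P2ry1* chr2:147391411-147391710 (plus strand) and for *P2ry2* chr1:164779439-164779738 (minus strand). Capitals mark each match, on either strand, to AGAACA (the half-site of androgen and glucocorticoid receptors), GGTCA (the half-site of oestrogen receptors) or GGGCGG (the GC box).
P2ry1: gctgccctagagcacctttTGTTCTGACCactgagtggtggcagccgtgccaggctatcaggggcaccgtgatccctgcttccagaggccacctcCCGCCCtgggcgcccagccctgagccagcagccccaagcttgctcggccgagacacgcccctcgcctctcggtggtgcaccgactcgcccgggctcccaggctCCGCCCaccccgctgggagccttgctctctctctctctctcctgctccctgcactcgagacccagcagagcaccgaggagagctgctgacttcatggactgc
P2ry2: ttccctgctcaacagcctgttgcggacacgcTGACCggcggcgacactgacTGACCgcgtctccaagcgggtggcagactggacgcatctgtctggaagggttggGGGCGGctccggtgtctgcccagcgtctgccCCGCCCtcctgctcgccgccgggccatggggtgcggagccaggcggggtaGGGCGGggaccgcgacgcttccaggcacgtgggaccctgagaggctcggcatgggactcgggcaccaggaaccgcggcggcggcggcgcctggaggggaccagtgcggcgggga
The *P2ry1* sequence held 1 match to AGAACA at position −231 from the start at 0, which shares a base with 1 match to GGTCA at −226, and 2 GC boxes. The *P2ry2* sequence held 2 matches to GGTCA, 3 GC boxes and 0 matches to AGAACA. Among 33469 such sequences of the rat, 20.7% held AGAACA, 40.5% held GGTCA and 33.1% held GGGCGG on either strand, so these short motifs are common. Of the 9 of the 10 genes with an entry, 2 held AGAACA, 5 held GGTCA and 6 held GGGCGG. The start of *Slc17a9* has no entry and was not examined. A match describes letters and is no evidence of binding.

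*P2ry1* (ENSRNOG00000014232, chromosome 2, 151314818 to 151320319 on Rnor_6.0) was at 3.42, 2.37, 2.77, 2.0 and 1.70 FPKM in males 1 to 5. In females 1 to 5 it was at 3.02, 4.55, 4.69, 4.53 and 3.06 FPKM. Male 1 lay above females 1 and 5, and the other males lay below all females. The means were 2.45 ± 0.674 FPKM in males against 3.97 ± 0.854 in females, a ratio of 1.62, with a log2 fold change of 0.69 (SE 0.21, limma adjusted p = 0.126). The exact permutation p, two-sided, was 0.0317, and it was above 0.05 in 6 of 10 repeats with a single rat left out (males 2, 4 and 5 and females 2, 3 and 4), reaching 0.0635.
*P2ry2* (ENSRNOG00000019283, chromosome 1, 166031272 to 166037424) was at 5.32, 4.11, 4.90, 5.02 and 4.29 FPKM in males 1 to 5. In females 1 to 5 it was at 3.42, 4.11, 3.16, 1.88 and 2.13 FPKM. The sexes met only in male 2 and female 2, both at 4.11 FPKM. The means were 4.72 ± 0.508 FPKM in males against 2.94 ± 0.928 in females, a ratio of 0.622, with a log2 fold change of −0.72 (SE 0.20, limma adjusted p = 0.102). Without female 2, the library with the highest mitochondrial share, the log2 fold change was −0.85 and the limma adjusted p 0.0380. In the other alternatives the adjusted p was 0.0715 to 0.225. The exact permutation p, two-sided, was 0.0159 and stayed at 0.0238 or less with each rat left out. The SD of *P2ry2* was 10.8% of the mean in males and 31.5% in females, where counting alone gives 8.51% and 11.03%.
Set against each other within a library, *P2ry2* stood at 1.55 to 2.52 times the FPKM of *P2ry1* in males (median 1.77). In females it stood at 0.415 to 1.13 times (median 0.695), with female 1 the only female above 1. The ranges of this ratio did not overlap. It was chosen after the values were seen and was not tested. Fibroblast markers had log2 fold changes with a median of −0.84 (5 of 6 at an unadjusted p under 0.05, *Col3a1* at a limma adjusted p of 0.0477) and a summed level of 250 to 333 FPKM in males against 79.4 to 234 in females. The 5 markers of injured tubule (*Havcr1*, *Lcn2*, *Krt19*, *Sox9*, *Vcam1*) all lay below 0 as well, *Sox9* at a limma adjusted p of 0.0359. Markers of the collecting duct lay above 0, with medians of 0.58 (intercalated cell, 5 of 5 above) and 0.40 (principal cell, 6 of 6). The part of all these markers in the values of the P2Y genes was not tested.

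**Figure D2:**
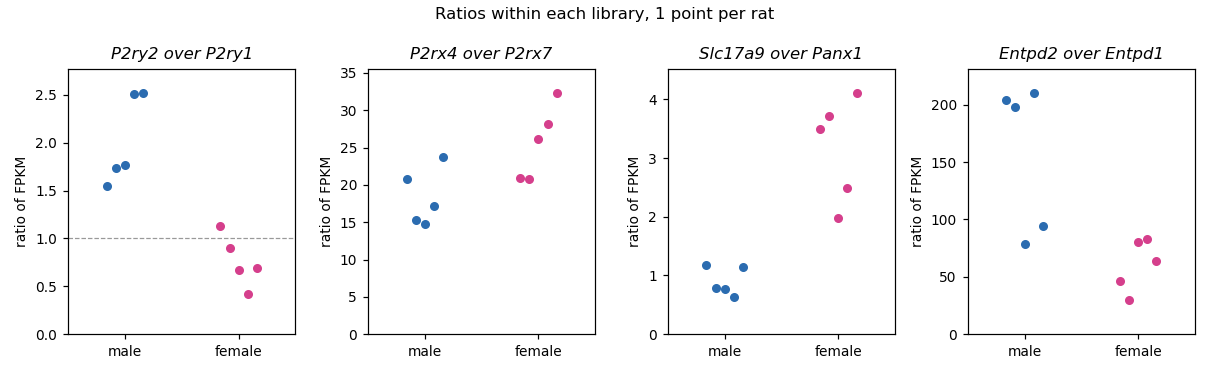
Ratios of the FPKM of paired genes within each library (y axis, from 0), 1 point per rat, males in blue and females in pink, with a dashed line at 1 for *P2ry2* over *P2ry1*. The ratio of *P2ry2* to *P2ry1* is 1.55 to 2.52 in males and 0.415 to 1.13 in females, and that of *Slc17a9* to *Panx1* is 0.640 to 1.18 and 1.98 to 4.11.

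The nucleotidases held both ends of the range of levels. *Entpd1* (ENSRNOG00000014574, chromosome 1, 259739955 to 259819494) encodes NTPDase1 or CD39, which takes ATP and ADP down to AMP and is known from endothelium and immune cells. It had the lowest mean of the 10 genes in males and over all libraries, and in females the next to lowest, above *P2rx7*. It was at 0.206, 0.137, 0.426, 0.154 and 0.353 FPKM in males 1 to 5 and at 0.669, 1.05, 0.490, 0.407 and 0.532 FPKM in females 1 to 5. Male 3 lay above female 4, the other males lay below all females, and female 2 was the highest. The means were 0.255 ± 0.128 FPKM in males against 0.630 ± 0.255 in females. The log2 fold change was 1.05 (SE 0.32, limma adjusted p = 0.125) and depended on the pseudocount, with 0.37 at 1 FPKM and 1.33 at 0.01 FPKM. The exact permutation p, two-sided, was 0.0159, and it was 0.0317 or less with each rat left out. Without female 2 the log2 fold change was 0.87 (limma adjusted p = 0.156). The gene had only 12 to 29 reads in each male and 34 to 70 in each female. Endothelial markers (*Kdr*, *Cdh5*, *Tek*, *Emcn*, *Flt1*, *Eng*) had a median log2 fold change of 0.03, with 0 of 6 at an unadjusted p under 0.05, and summed to 127 to 161 FPKM in males against 122 to 208 in females. The 6 lymphocyte markers had a median of −0.52 and summed to 30.6 to 58.3 FPKM in males against 15.8 to 42.5 in females, and the macrophage median was −0.48 as given above. The part of these cells in the values of *Entpd1* was not tested.
*Entpd2* (ENSRNOG00000013102, chromosome 3, 2617805 to 2623445) encodes NTPDase2, a surface enzyme that prefers ATP over ADP. It was at 42.1, 27.1, 33.6, 32.5 and 33.2 FPKM in males 1 to 5 and at 30.9, 31.1, 39.2, 33.9 and 33.9 FPKM in females 1 to 5. The male values enclosed the female ones. The means were 33.7 ± 5.38 and 33.8 ± 3.38 FPKM, and the log2 fold change of 0.01 (SE 0.11, limma adjusted p = 0.974) turned below 0 with quantile normalization and with scaling to total reads. The exact permutation p, two-sided, was 0.984. *Entpd2* stood at 78.8 to 211 times the FPKM of *Entpd1* in males and at 29.5 to 83.4 times in females.
*Entpd5* (ENSRNOG00000033206, chromosome 6, 108087418 to 108120579) encodes an enzyme of the endoplasmic reticulum that splits UDP and serves protein glycosylation, so it is a relative of the surface enzymes rather than one of them. It was the most abundant of the 10, at 54.6, 80.1, 68.6, 70.3 and 59.6 FPKM in males 1 to 5 and at 72.6, 61.4, 66.3, 88.5 and 93.9 FPKM in females 1 to 5. Females 4 and 5 were above all males, and the other females lay within the male range. The log2 fold change was 0.19 (SE 0.14, limma adjusted p = 0.560), with an exact permutation p, two-sided, of 0.238. Without female 5 the change on the log2 scale was 0.11, and without male 1 it was 0.12. Scaling to total reads also gave 0.12. Its span overlaps *Coq6* and AABR07073248.1 in the annotation, and the strand setting of the read counting is not given in the sources used here, so reads of these genes may be shared with it.
*Nt5e* (ENSRNOG00000011071, chromosome 8, 95968652 to 96012696) encodes CD73, which turns AMP into adenosine and in kidney is known from proximal tubule and cortical fibroblasts. It was at 21.2, 27.5, 29.2, 27.6 and 22.5 FPKM in males 1 to 5 and at 19.7, 16.04, 23.4, 29.4 and 24 FPKM in females 1 to 5. Female 2 was the lowest and female 4 the highest of the 10 rats. The log2 fold change was −0.20 (SE 0.16, limma adjusted p = 0.583), and the exact permutation p, two-sided, was 0.302. Its log2 fold change was −0.09 without female 2, −0.31 without female 4 and −0.10 with the mitochondrial share as a covariate. Markers of proximal tubule had a median of 0.18 and those of fibroblasts −0.84, and their part in the values of *Nt5e* was not tested.

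**Figure D3:**
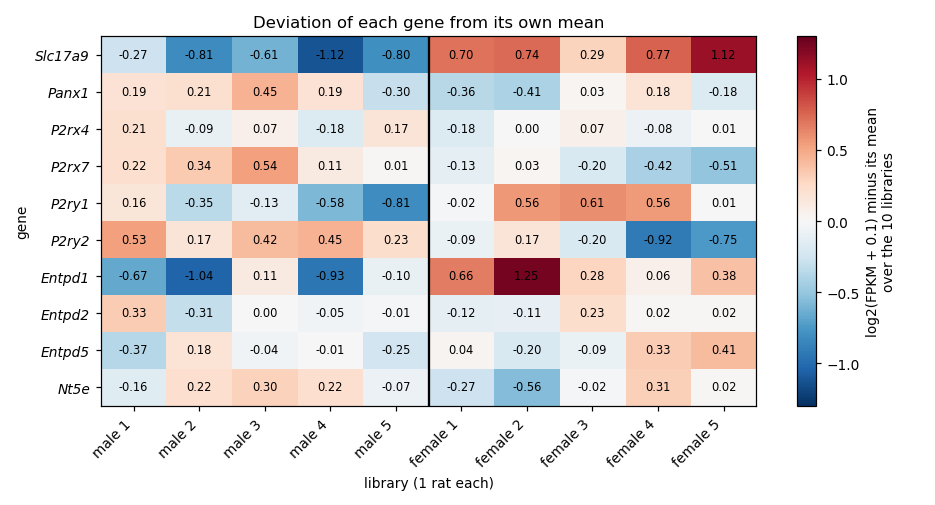
Deviation of log2(FPKM + 0.1) from the gene's own mean over the 10 libraries (colour and printed value), genes in rows and libraries in columns, with a line between males and females. *Slc17a9* runs from −1.12 in male 4 to 1.12 in female 5 with every male below 0 and every female above 0, while *P2rx4* stays between −0.18 and 0.21.

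FPKM is scaled by gene length, so levels can be ranked across genes. In males the order of mean FPKM was *Entpd5*, *Entpd2*, *Nt5e*, *P2rx4*, *P2ry2*, *Panx1*, *Slc17a9*, *P2ry1*, *P2rx7* and *Entpd1*. In females it was *Entpd5*, *Entpd2*, *Nt5e*, *P2rx4*, *Slc17a9*, *P2ry1*, *P2ry2*, *Panx1*, *Entpd1* and *P2rx7*. The first 4 genes kept their places in both sexes. Among these, the ranges of *Entpd2* and *Nt5e* overlapped in males, and those of *Nt5e* and *P2rx4* overlapped in females. *Slc17a9* went from place 7 in males to place 5 in females, where it was above *P2ry1* in 5 of 5 libraries without overlap. In males *Slc17a9* did not differ from its neighbours beyond their spread, since it was below *Panx1* in 3 of 5 libraries and above *P2ry1* in 1 of 5. In females *P2ry1*, *P2ry2* and *Panx1* overlapped each with the next, and so did *Entpd1* and *P2rx7*. Against all genes tested, the mean over the 10 libraries put *Entpd5* at percentile 93.5, *P2rx4* at 72.6, *Slc17a9* at 46.1 and *Entpd1* at 15.1. Counting error was the smaller part of the spread for the abundant genes, at 1.33% of the mean against an SD of 14.9% for *Entpd5* in males.

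The other genes of extracellular nucleotide handling were taken from a list written by gene family, with 49 further symbols, of which 48 were in the table and 39 rows passed the filter. Of these 39, 0 were higher and 2 were lower in females at a limma adjusted p of at most 0.05, against 1.26% higher and 1.14% lower of all genes, shares that also stand beside the counts for each family given next. Of the 39, 9 had an unadjusted p under 0.05 (23.1%, against 15.7% of all genes). Their log2 fold changes were above 0 in 16 and below 0 in 23, with a median of −0.07. *Entpd8* (chromosome 3, 2288667 to 2302782), which encodes a further surface NTPDase, fell from 0.590 ± 0.146 FPKM in males to 0.166 ± 0.0777 in females (log2 fold change −1.41, SE 0.29, limma adjusted p = 0.0309). It overlaps *Noxa1*, had 4 to 82 reads per rat, and its call was lost without male 2, 3, 4 or 5 or without female 3 or 5 (adjusted p up to 0.0819). With the replicate number as a block its limma adjusted p was 0.0978. It was 0.0560 with quantile normalization and 0.0693 with the mitochondrial share as a covariate. The log2 fold change of *Entpd8* was −0.44 at a pseudocount of 1 and −1.91 with limma-voom. *Enpp5* (chromosome 9, 19469706 to 19476646), a member of the pyrophosphatase and phosphodiesterase family, fell from 48.1 ± 5.22 FPKM in males to 36.1 ± 2.85 in females (log2 fold change −0.41, SE 0.09, limma adjusted p = 0.0428). This change is under 2-fold, so the gene was not called. Its limma adjusted p was above 0.05 in 9 of the 10 fits that left out 1 rat, all but that without male 1, reaching 0.116, and was 0.105 with the replicate number as a block.
The most abundant gene of each family, by its mean over all 10 libraries, was not called. Among release genes this was *Panx2*, at 19.7 ± 2.68 FPKM in males against 14.4 ± 1.87 in females (log2 fold change −0.45, limma adjusted p = 0.0774), although in females *Lrrc8a* was higher, at 15.9 FPKM. The connexin gene *Gja1* was at 19.7 ± 3.94 and 10.1 ± 3.80 FPKM (log2 fold change −1.03, limma adjusted p = 0.0800), and it was called with limma-voom only. Of the 7 release genes tested, 1 rose (*Slc17a9*) and 0 fell at an adjusted p of at most 0.05, with 3 at an unadjusted p under 0.05. *P2rx4* led the P2X receptors, of which 0 of 4 tested passed the adjusted p and 1 an unadjusted p under 0.05. For the P2Y receptors these counts were 0 and 3 of 8 tested, and *P2ry2* led over all libraries and in males, *P2ry1* in females. *Entpd5* led the NTPDases, where 1 of 10 tested fell (*Entpd8*) and 0 rose. Among the hydrolases of AMP and phosphate esters, 1 of 8 tested fell (*Enpp5*) and 0 rose, and *Alpl*, the tissue alkaline phosphatase, led with 81.8 ± 18.5 and 110 ± 23.7 FPKM (log2 fold change 0.44, limma adjusted p = 0.300). Of the 4 adenosine receptor genes, 3 were tested, all 3 log2 fold changes lay below 0, and 0 passed the adjusted p while 2 had an unadjusted p under 0.05. *Adora2a*, the most abundant, was at 4.11 ± 0.419 FPKM in males against 2.73 ± 0.993 in females (log2 fold change −0.65, limma adjusted p = 0.223). *Adora1* was at 2.99 ± 0.484 and 1.90 ± 0.668 FPKM (log2 fold change −0.69, limma adjusted p = 0.197). Their family's summed level was 7.29 to 10.3 FPKM in males against 3.51 to 7.17 in females. Beside it, marker medians were −0.84 for fibroblast, −1.08 for injured tubule, −0.48 for macrophage and −0.52 for lymphocyte. Those of intercalated (0.58) and principal cells (0.40) lay above 0. The part of these markers in the adenosine receptor values was not tested. *Dpp4* led the list of adenosine removal and nucleoside transport with 152 ± 19.0 and 166 ± 27.7 FPKM (log2 fold change 0.13, limma adjusted p = 0.695). Of the 9 tested genes of that list, 0 had an unadjusted p under 0.05.

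**Figure D4:**
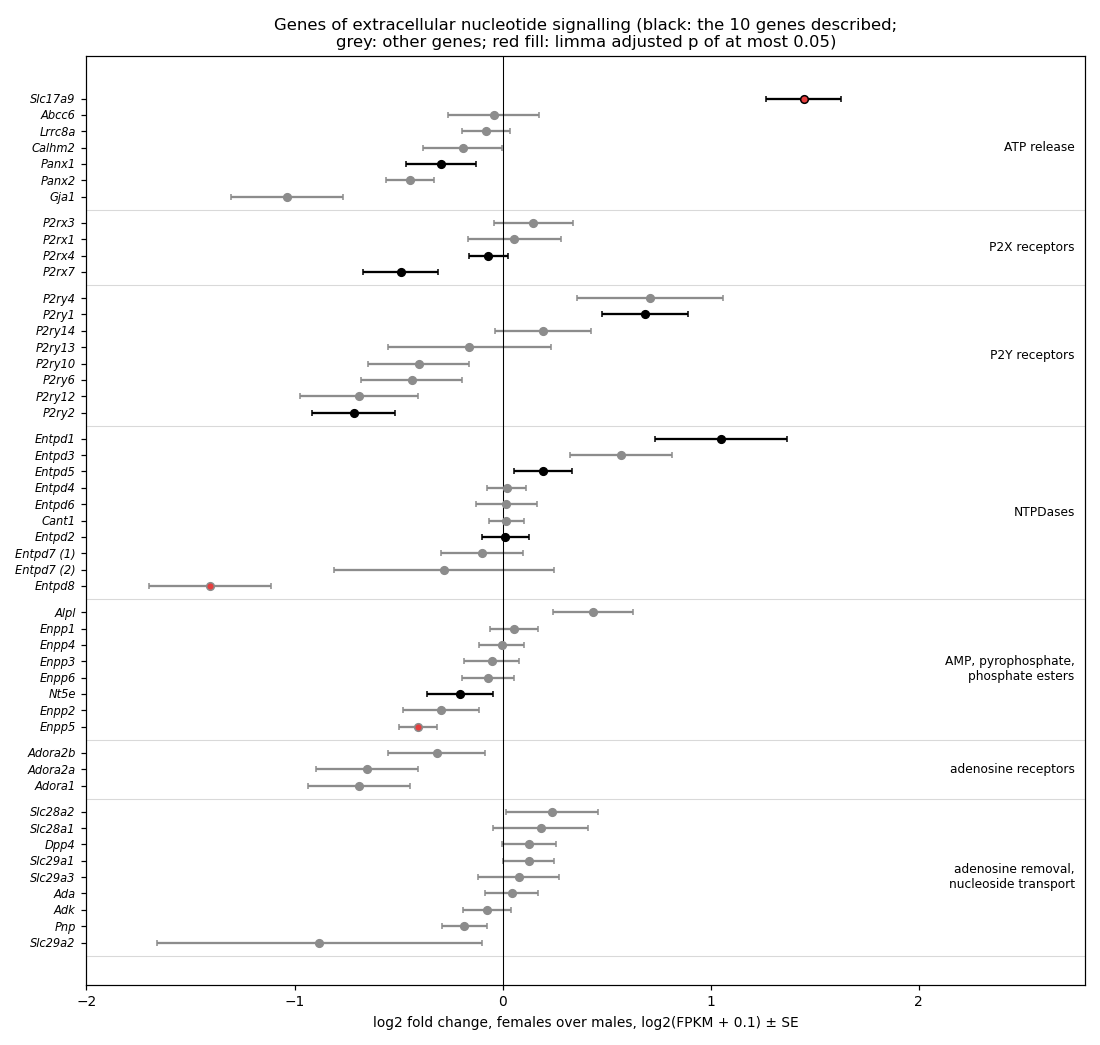
Log2 fold change of females over males on log2(FPKM + 0.1) (x axis) with its SE as a bar for the 49 tested rows of the pathway list, grouped by family. The 10 genes described are black, the others grey, and red fill marks the 3 genes at a limma adjusted p of at most 0.05, *Slc17a9* at 1.45, *Entpd8* at −1.41 and *Enpp5* at −0.41.

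Likeness to other genes was measured by Pearson's r of the log2 values after each sex's mean was subtracted, over 10 libraries. For *Slc17a9*, the gene with the smallest p, the nearest were *Rps27a-ps1* (r = 0.903), *Sim1* (r = 0.882) and *Fgf11* (r = 0.855). For *Entpd5*, the gene with the highest mean, the nearest were *Sfxn1* (r = 0.983), *Dleu7* (r = 0.956) and *Slc22a25* (r = 0.955). These are the highest values among all tested genes, all from the same 10 libraries, and are given as a description only.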

How the data were processed

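RNA libraries of renal cortex, 1 per rat, were assigned to males or females from the sample titles. The authors deposited 1 table of FPKM per gene for all rats, made from reads mapped to Rnor_6.0, and the submitters' processing notes name fastp, HISAT2 2.0.5, StringTie 1.3.3b and featureCounts 1.5.0-p3. Whole reads were recovered (within 0.01, for 100% of the values) from the FPKM and the gene lengths. The smallest product of FPKM and length above 0 in a library was taken as 1 read and refined. The size of the library was inferred from it. No molecular identifiers were used, so read numbers speak of counting error only.

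Differences were tested in all genes with limma 3.58.1 in R 4.3.3 (lmFit, then eBayes with trend) on log2(FPKM + 0.1), after genes with a mean under 0.1 FPKM had been left out, with Benjamini-Hochberg adjustment over the 17631 genes kept. Single genes were also tested by exact permutation over all 252 splits of the rats, two-sided, with raw p-values. Both procedures were tested on simulated data. Python 3.11.15, numpy 2.4.6, pandas 2.3.3 and matplotlib 3.10.9 served for tables and plots.

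The genes, the pathway and marker lists and the motifs were chosen with earlier results of these data known. By rule, the text names all 10 genes, the genes of the pathway list at an adjusted p of at most 0.05, the most abundant gene of each family, and the 3 genes most like the gene of smallest p and the gene of highest mean. *Gja1*, *Adora1*, the ratios between genes and the genes in the closing observations were added after their values were seen. *Acp3* was not analysed here. *Entpd7* and *Adora3* were each listed under 2 identifiers. The alternatives were other pseudocounts (1 and 0.01 FPKM), other filters (none, and a mean of 1 FPKM), quantile normalization, scaling to total reads, limma-voom on the recovered reads, a robust eBayes, a block for the replicate number, the mitochondrial share as a covariate, and each rat left out in turn. The rats came from 2 litters, and p-values measure the spread between these rats.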

Additional observations from a re-analysis of the deposited data

How the results depend on the processing

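*Slc17a9* was called in the main analysis and in all 20 alternatives, with log2 fold changes from 1.19 (pseudocount of 1) to 1.56 (without male 1) and limma adjusted p from 0.00103 to 0.0204, the last with the replicate number as a block. The count of the 10 genes at a limma adjusted p of at most 0.05 was 1, and 1 to 2 with each rat left out, the second gene being *P2ry2* without female 2. The count of called genes of the pathway list was 2 (*Slc17a9* and *Entpd8*) and 3 with limma-voom, which added *Gja1*. It was 1, *Slc17a9* alone, with a pseudocount of 1, a filter at 1 FPKM, quantile normalization, the replicate block or the mitochondrial share as a covariate, and 1 to 2 with each rat left out. At a pseudocount of 1 *Entpd8* fell short of 2-fold (−0.44), and at a filter of 1 FPKM it was not tested, nor were *P2rx7* and *Entpd1*. For the other losses the cause was not tested. *Entpd2* reversed, to −0.044 with quantile normalization and −0.062 with scaling to total reads, and ranged from −0.062 (without male 2) to 0.097 with each rat left out, its difference in mean FPKM from −1.55 to 2.21. Of 397 comparisons of 25 results with an alternative, 349 kept direction and side of the threshold or stayed within 1.5 times the count. This total includes genes far from the threshold, which had no call to lose. Among the results that passed, *Slc17a9* kept the adjusted p in 20 of 20 alternatives, while *Entpd8* lost it in 9 of 19 and *Enpp5* in 11 of 20. The count of called pathway genes moved in 11 of 20. Scaling to total reads moved the median log2 fold change of all genes to −0.08, the largest shift among the alternatives. Same-numbered males and females had deviations that correlated between −0.10 and 0.07 over genes. Of 5 males, 1 correlated best with the female of its own number. Such correlations cannot show whether same-numbered rats shared a litter or a batch. With the replicate block *Entpd8* lost its call, the adjusted p of *Enpp5* rose above 0.05, and no call among the 10 genes was lost. Read number limits *Entpd1* (12 to 70 reads per rat), *P2rx7* (30 to 69) and *Entpd8* (4 to 82).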

Other observations

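Further receptors of the pathway list, named after their values were seen, gave these values. *P2ry12*, a receptor for ADP known from platelets and microglia, was at 2.86 ± 0.833 FPKM in males against 1.75 ± 0.593 in females (log2 fold change −0.69, limma adjusted p = 0.260), and it lies within *Med12l*, so its reads are uncertain. *P2ry6*, a receptor for UDP, was at 3.11 ± 1.13 and 2.23 ± 0.555 FPKM (log2 fold change −0.44, limma adjusted p = 0.431), with male 5 the highest at 4.90 FPKM. *P2ry4*, a P2Y receptor gene on the X chromosome, had 1 to 12 reads per rat and was at 0.259 ± 0.166 FPKM in males against 0.445 ± 0.114 in females (log2 fold change 0.71, limma adjusted p = 0.365). *P2rx2*, *P2rx5* and *P2rx6* had a mean under 0.1 FPKM and were not tested, and *Calhm1* is listed at 0 in all 10 libraries. *Entpd3*, an NTPDase of the cell surface, was at 0.857 ± 0.314 and 1.28 ± 0.254 FPKM (log2 fold change 0.57, limma adjusted p = 0.293). *Entpd4*, an NTPDase of the Golgi apparatus, was at 36.9 ± 0.910 FPKM in males against 37.6 ± 5.0 in females, so the males lay close together and female 2 was the lowest of the 10 at 30.2 FPKM.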
